A study of Mus musculus with 12 samples.

Results

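Genes that mark monocytes newly recruited into tissue were followed in sorted cardiac macrophages (Mφ). These were Ccr2, Ly6c2, Chil3, Plac8, Fn1, Vcan and S100a4, and they were taken by gene symbol from the count files, where all 7 members were found among 24445 symbols. Each of the 7 passed the filter on low counts, which kept 14608 genes for testing. The libraries came from adult male C57BL/6J mice, with 4 mice per group by the study's account and 4 libraries per group, and each library holds the RNA of CD14+/CD64+ cells sorted by FACS within a CD11b+ gate from the heart after enrichment of CD45+ leukocytes. Control (Ct) mice carried a saline pump (vehicle was infused for 14 or 28 days, and which of these applies to each Ct library is not stated), ECH mice received isoproterenol (iso, a β-adrenergic agonist) for 14 days and developed early concentric hypertrophy, and HF mice received iso for 28 days and progressed to heart failure. The dose was 30 mg/kg/day in both iso groups. A sort on 2 surface proteins does not separate resident Mφ from Mφ that arose from monocytes, and the age of a cell in the heart was not recorded.

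In the mouse, classical monocytes leave the bone marrow through the chemokine receptor CCR2 and carry the surface antigen Ly6C. Once inside a tissue they lose Ly6C and take on the features of Mφ, while part of the long-lived resident Mφ of the heart is maintained without input from blood and lacks CCR2. Among the members, Ccr2 encodes the receptor for CCL2 and Ly6c2 a small membrane-anchored protein that makes up the Ly6C antigen together with the product of Ly6c1. Chil3 encodes the secreted chitinase-like protein Ym1, and Plac8 a small cysteine-rich protein that is abundant in monocytes and also made by neutrophils. Fn1 encodes fibronectin and Vcan versican, both secreted into the extracellular matrix, and S100a4 encodes a calcium-binding protein found in many motile cells.

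The members did not move as a block. Fn1 was the single member called against Ct, in HF Mφ, where it rose 3.58-fold (95% confidence interval 2.06 to 6.20) and was higher in every HF library than in every Ct library. In ECH Mφ, Fn1, Chil3 and Ly6c2 were each above Ct in all 4 libraries, with fitted ratios of 2.90, 3.06 and 2.07, but none of these passed the test over all genes. Ccr2 had its largest ratio to Ct at 28 days (1.87), whereas the Ly6c2 mean was highest at 14 days and in HF stood at 0.977 of Ct. Plac8 had lower means in both iso groups, and for S100a4 and Vcan the libraries of both iso groups overlapped with Ct.

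Levels are given as CPM, the counts of a gene per 1000000 counts of its library after TMM scaling of the library sizes. Differences were tested with edgeR's quasi-likelihood test in a single model fitted to the 12 libraries together, with Benjamini-Hochberg adjustment over the 14608 genes (FDR). Calls required both an FDR below 0.05 and a difference of 2-fold or more. Library totals ran from 88466559 to 111180291 counts. Vcan, the member with the lowest level, held from 0 counts (Ct2 and HF1) to 1011 counts (ECH4). The cells carried the Mφ markers of the sort, with Cd14 at means of 2101 to 2537 CPM and Fcgr1, the gene of CD64, at 120.3 to 159 CPM over the groups. Library Ct2 and library HF1 held the fewest genes with a count in their groups (14489 and 13600, against up to 15940 elsewhere). From library numbers in the labels, sets can be inferred that place ECH1 and ECH2 beside the Ct libraries and ECH3 and ECH4 beside the HF libraries. No such set holds both Ct and HF libraries, so a model with a term for the set compares HF with Ct only by way of the ECH libraries.

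Ly6c2 and Chil3 each have a near-identical neighbour, and the stretches shown here let a reader see where a 75-base read can tell the copies apart. Ly6c2 (chr15:75108158-75111970, minus strand, GRCm38, GENCODE M21) and Ly6c1 (chr15:75044018-75048830, minus strand) share 97.73% of 396 coding bases, with 9 mismatches. Of all 75-base windows of the Ly6c2 coding sequence, 35.4% occur unchanged in Ly6c1, and the longest shared run is 188 bases. The first 75 coding bases hold 6 of the 9 mismatches, set in capitals.
Ly6c2: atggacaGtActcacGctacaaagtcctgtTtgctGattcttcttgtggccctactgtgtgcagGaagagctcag
Ly6c1: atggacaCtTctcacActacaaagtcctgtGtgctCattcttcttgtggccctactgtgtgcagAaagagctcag
A single read from this window names its gene, whereas a single read within the shared run does not. Counts of Ly6c2 and Ly6c1 are therefore uncertain relative to each other, by an extent that was not measured. Sequencing was paired-end, so a mate outside the shared run can name the gene, and only coding windows of Ly6c2 were searched. Chil3 (chr3:106147554-106167564, minus strand) and Chil4 (chr3:106201490-106219507, minus strand) are further apart, with 56 mismatches in 1197 aligned coding bases (95.32% identity) and 9.97% of windows shared. Coding bases 842 to 916 are the window with the most mismatches, 11, in capitals.
Chil3: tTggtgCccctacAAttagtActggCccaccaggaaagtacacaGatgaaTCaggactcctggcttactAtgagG
Chil4: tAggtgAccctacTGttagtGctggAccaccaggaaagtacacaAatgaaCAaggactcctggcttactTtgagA
Chil4 held at most 9 counts in any library, against 2032 to 18642 counts of Chil3, so at most 0.233% of the counts of the pair were assigned to Chil4.

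Promoter sequence was at hand for 6 of the members, all but Fn1, as 250 bases before and 50 bases after the RefSeq start (GRCm38.p6). The 2 members with the largest ratios in ECH among these, Chil3 and Ly6c2, are shown from base 250 to base 1 before the start, with every match to the letters searched in capitals. The letters were GAGGAA for PU.1, TTNNGNAA for C/EBP, TGANTCA for AP-1, TGACGTCA for the cAMP response element, GAAANNGAA for the interferon response, TATAAA for the TATA box and GGGCGG for the GC box, each on both strands.
Ly6c2 (chr15:75111972-75112221, minus strand): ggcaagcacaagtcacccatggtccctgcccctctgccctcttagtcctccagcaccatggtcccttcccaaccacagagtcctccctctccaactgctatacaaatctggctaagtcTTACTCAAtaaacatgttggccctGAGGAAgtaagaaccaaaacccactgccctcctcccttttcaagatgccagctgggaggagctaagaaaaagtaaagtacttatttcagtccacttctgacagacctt
Chil3 (chr3:106167565-106167814, minus strand): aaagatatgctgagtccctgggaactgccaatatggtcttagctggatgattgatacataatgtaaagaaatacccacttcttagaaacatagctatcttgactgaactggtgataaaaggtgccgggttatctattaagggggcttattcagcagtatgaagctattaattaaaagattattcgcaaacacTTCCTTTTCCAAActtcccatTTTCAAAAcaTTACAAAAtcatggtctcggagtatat
In the Ly6c2 run the capitals are 1 match to the C/EBP letters and 1 to the PU.1 letters. In the Chil3 run they are 3 matches to the C/EBP letters and 1 to the interferon letters, of which the latter overlaps a C/EBP match. Over the full window, the C/EBP letters were found in 4 of 6 members (Ccr2, Ly6c2, Chil3 and Plac8), beside 40.7% of all 27025 promoters in the table. The PU.1 letters were found in 3 of 6 (Ly6c2, Plac8 and S100a4), beside 28.3%, and the interferon letters in 2 of 6 (Ccr2 and Chil3), beside 8.57%. The TATA letters were in Chil3 and S100a4 (14.2% of all promoters) and the GC box letters in Vcan (35.9%). The AP-1 letters (7.93%) and the cAMP response element letters (1.88%) were in none of the 6. These matches describe letters in a window and do not show that a factor binds there.

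**Figure D1:**
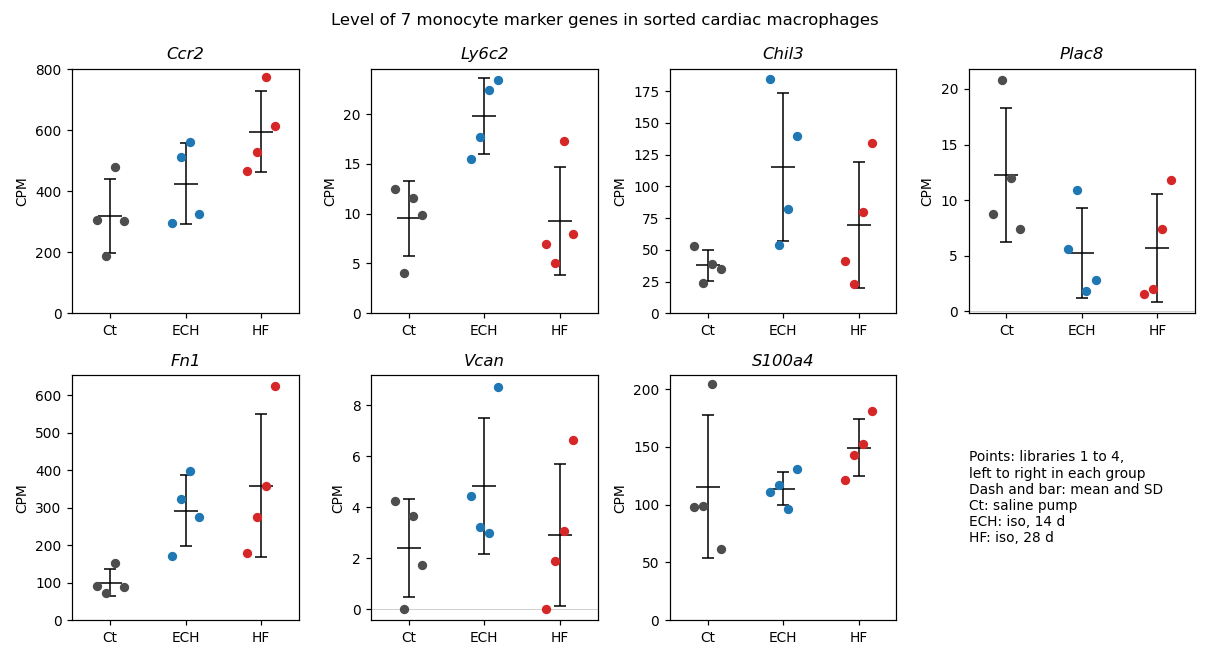
Level of each member in CPM (vertical axis, linear and starting at or below 0) in the 4 libraries of Ct, ECH and HF (points, library 1 to 4 from left to right), with the group mean and SD (dash and bar). Fn1 in HF lies between 178 and 625 CPM, above all Ct libraries, while Ly6c2 is highest in ECH and Plac8 has its highest point in Ct2.

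Ccr2 (chr9:124101950-124113557, plus strand) was read at 304, 189, 481 and 301 CPM in Ct1 to Ct4. It was at 296, 512, 563 and 325 CPM in ECH1 to ECH4. In HF1 to HF4 it was at 466, 527, 773 and 615 CPM. Ct2 was the lowest of all libraries and HF3 the highest, and 3 of the 4 HF libraries lay above every Ct library, with HF1 just under Ct3. The group means were 319 ± 121 CPM (Ct), 424 ± 133 CPM (ECH) and 595 ± 133 CPM (HF) (SD, n = 4). The log2 fold change was 0.41 for ECH against Ct (SE 0.28, edgeR FDR 0.613), 0.90 for HF against Ct (SE 0.28, unadjusted p 0.00676, FDR 0.169) and 0.49 for HF against ECH (SE 0.28, FDR 0.706). The receptor gene was thus not called in any comparison with this test, and the interval for HF against Ct ran from 1.23-fold to 2.85-fold. DESeq2 gave an FDR of 0.0287 for HF against Ct with a log2 fold change of 0.90, under the 2-fold limit and so not called, and over the alternatives other than leaving out 1 library the FDR ran up to 0.512, the value from a model with a term for the inferred set (log2 fold change 0.77).

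Ly6c2 gave 12.5, 4.08, 11.6 and 9.91 CPM in Ct1 to Ct4, and 15.5, 17.7, 22.4 and 23.5 CPM in ECH1 to ECH4. HF1 to HF4 held 6.92, 5.09, 17.2 and 7.95 CPM. All ECH libraries were above all Ct libraries, and all but one of the HF libraries were below all ECH libraries, HF3 being the exception. The means were 9.52 ± 3.78 CPM (Ct), 19.8 ± 3.82 CPM (ECH) and 9.30 ± 5.43 CPM (HF) (SD, n = 4). The log2 fold change was 1.05 for ECH against Ct (SE 0.40, edgeR p 0.0205, FDR 0.310), −0.03 for HF against Ct (SE 0.40, FDR 0.980) and −1.09 for HF against ECH (SE 0.40, edgeR p 0.0175, FDR 0.564). None of these passed the adjusted threshold. Within the inferred sets the value was 0.79 for ECH1 and ECH2 against Ct (edgeR FDR 0.951) and −1.30 for HF against ECH3 and ECH4 (edgeR FDR 0.145).
Ly6c1, the copy shown beside Ly6c2 above, had means of 7.63 ± 3.49 CPM (Ct), 10.4 ± 5.996 CPM (ECH) and 6.41 ± 2.20 CPM (HF) (SD, n = 4). Its log2 fold change was 0.44 for ECH against Ct and −0.69 for HF against ECH (edgeR FDR 0.773 and 0.781). The ratio of Ly6c2 to Ly6c1 counts had a median of 1.35 in Ct, 2.39 in ECH and 1.27 in HF, with overlapping ranges of 0.977 to 1.64, 1.23 to 3.01 and 0.884 to 2.68. How reads that fit both genes were treated is not stated, and reads that were discarded are missing from both. Summed over the pair, the level was 17.2 ± 7.10 CPM (Ct), 30.1 ± 9.39 CPM (ECH) and 15.7 ± 6.28 CPM (HF) (SD, n = 4). The lowest ECH sum, 20.99 CPM, lay under the highest Ct sum, 21.8 CPM, so the groups overlapped for the pair although they did not for Ly6c2.

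Chil3 was at 52.8, 23.6, 39.0 and 35.2 CPM in Ct1 to Ct4. It reached 185, 54.1, 82.2 and 139 CPM in ECH1 to ECH4. HF1 to HF4 held 41.5, 22.7, 79.5 and 134 CPM. Every ECH library was above every Ct library, though ECH2 exceeded Ct1 by little, and the HF libraries spread over the whole range of Ct and most of that of ECH. The means were 37.6 ± 12 CPM (Ct), 115 ± 58.3 CPM (ECH) and 69.5 ± 49.3 CPM (HF) (SD, n = 4), and the spread within HF amounted to 71.0% of its mean. The log2 fold change was 1.61 for ECH against Ct (SE 0.50, edgeR p 0.00620, FDR 0.202), 0.89 for HF against Ct (SE 0.49, FDR 0.399) and −0.73 for HF against ECH (SE 0.49, FDR 0.767). Chil3 was called for ECH against Ct by edgeR's likelihood ratio test (FDR 0.0435) and by no other alternative. ECH1 and ECH2 alone gave 1.66 against Ct (edgeR FDR 0.760). Without HF4 the Chil3 value was 0.35 for HF against Ct and −1.26 for HF against ECH (edgeR FDR 0.780 and 0.651), and without ECH1 the latter was −0.40 (edgeR FDR 0.900).

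Fn1 (chr1:71585520-71653200, minus strand) was at 90.5, 72.2, 151 and 87.6 CPM in Ct1 to Ct4. It was at 171, 322, 397 and 275 CPM in ECH1 to ECH4 and at 178, 276, 357 and 625 CPM in HF1 to HF4. All 8 libraries from iso-treated mice exceeded all 4 Ct libraries, the nearest being Ct3 at 151 CPM and ECH1 at 171 CPM, and HF4 stood above the others. The means were 100.5 ± 34.9 CPM (Ct), 291 ± 94.7 CPM (ECH) and 359 ± 192 CPM (HF) (SD, n = 4). Against Ct the log2 fold change was 1.84 in HF (SE 0.37, edgeR p 0.000233, FDR 0.0467), rank 73 by p of all genes tested, and 1.54 in ECH (SE 0.36, edgeR p 0.000981, FDR 0.0950), rank 149. Between HF and ECH it was 0.30 (SE 0.36, FDR 0.915), with an interval of 0.723-fold to 2.10-fold. Both comparisons with Ct use the same Ct libraries.
The call for HF against Ct lay close to the threshold. It was kept when Ct3 or HF1 was left out and lost when any one of the other 10 libraries was (FDR 0.0511 to 0.149), including each ECH library, which enters only through the shared estimate of spread and the genes that pass the filter. The log2 fold change over these 12 fits stayed between 1.43, without HF4, and 2.11, without Ct3. Without Ct2 and HF1 together it was 1.93 (edgeR FDR 0.0615), and in a model with a term for the inferred set 1.39 (edgeR FDR 0.319). For ECH against Ct, ECH1 and ECH2 alone gave 1.29 (edgeR p 0.00541, FDR 0.760), while DESeq2 and the likelihood ratio test called Fn1 there (FDR 0.000911 and 0.00345).

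**Figure D2:**
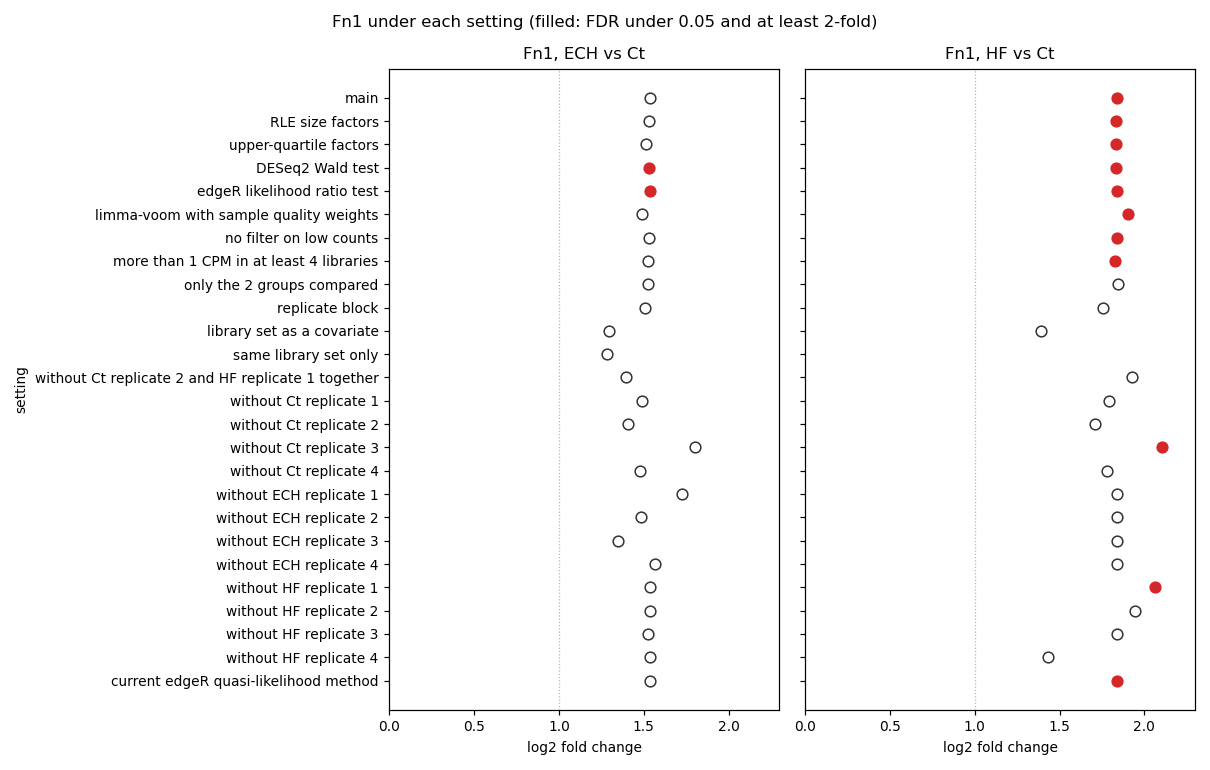
Log2 fold change of Fn1 (horizontal axis) for ECH against Ct (left) and HF against Ct (right) under each setting (vertical axis), where filled points passed an FDR of 0.05 with at least 2-fold and the dotted line marks 2-fold. All points lie above 2-fold, between 1.29 and 1.80 for ECH and between 1.39 and 2.11 for HF, and the setting decides which are filled.

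Fibroblasts are a major source of fibronectin in the heart, and RNA of their marker genes was present although the CD45 enrichment and the CD11b+ CD14+/CD64+ gate select leukocytes. The sum of 7 fibroblast markers was 29.3, 35.2, 111 and 192 CPM in Ct1 to Ct4, 236, 162, 90.2 and 468 CPM in ECH1 to ECH4 and 81.1, 181, 248 and 120.3 CPM in HF1 to HF4. Dcn made up most of it, with means of 62.7 CPM (Ct), 149.9 CPM (ECH) and 102 CPM (HF). All 7 had higher means in both iso groups than in Ct by fitted value, none was called, and only Postn in ECH had an unadjusted p under 0.05 (log2 fold change 3.44, edgeR p 0.0139, FDR 0.274). Ct1 and Ct2 were low in both Fn1 and the markers, and among HF1, HF2 and HF3 a library with more Fn1 held more of the markers, whereas Ct4 had the largest sum in Ct with less Fn1 than Ct1, ECH3 had the most Fn1 and the smallest sum in ECH, and HF4 had the most Fn1 of all libraries with the next smallest sum in HF after HF1. The part of fibroblast RNA in the Fn1 result was not tested, and fewer cells of a type cannot be told apart from less RNA per cell in bulk libraries.

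Vcan (chr13:89655312-89742509, minus strand), the other matrix gene, was at 4.23, 0, 3.65 and 1.72 CPM in Ct1 to Ct4. It was at 4.44, 3.21, 2.98 and 8.74 CPM in ECH1 to ECH4 and at 0, 1.90, 3.08 and 6.66 CPM in HF1 to HF4. The libraries without a count were Ct2 and HF1, those with the fewest genes detected, and a count of 0 there allows up to 0.0349 and 0.0287 CPM (3 counts, counting error only). The groups overlapped, and the log2 fold changes of 1.01, 0.28 and −0.73 for ECH against Ct, HF against Ct and HF against ECH carried SEs of 1.36, 1.35 and 1.36 (edgeR FDR 0.821, 0.945 and 0.961). For HF against Ct the interval ran from 0.161-fold to 9.13-fold in a fit that includes both libraries at 0. Without Ct2 and HF1 the values were 0.27 for HF against Ct and −0.31 for HF against ECH (edgeR FDR 0.867 and 0.892), and without HF4 the latter was −1.54 (edgeR FDR 0.889).

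S100a4 (chr3:90603771-90606045, plus strand) was at 98.0, 99.0, 204 and 61.3 CPM in Ct1 to Ct4. In ECH1 to ECH4 it was at 111, 117, 96.5 and 131 CPM, and in HF1 to HF4 at 121, 143, 152 and 181 CPM. The HF and ECH libraries were close together within their groups, with coefficients of variation of 16.7% and 12.6%, whereas Ct spread over 3.33-fold because of Ct3 and Ct4. The log2 fold change was −0.02 for ECH against Ct (SE 0.28, edgeR FDR 0.989), 0.37 for HF against Ct (SE 0.28, FDR 0.565) and 0.39 for HF against ECH (SE 0.28, FDR 0.789). The upper bounds of the intervals were 1.499-fold for ECH and 1.97-fold for HF against Ct. Without Ct3 the value was 0.40 for ECH (edgeR FDR 0.357), of the opposite sign, and 0.80 for HF against Ct (edgeR FDR 0.0669), and limma-voom gave 0.65 for HF against Ct (FDR 0.147).

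Plac8 (chr5:100553725-100572245, minus strand) was the single member with lower means in both iso groups beyond a ratio of 2. It was at 8.79, 20.8, 12.02 and 7.36 CPM in Ct1 to Ct4, at 5.55, 10.9, 1.84 and 2.84 CPM in ECH1 to ECH4 and at 1.52, 2.02, 7.43 and 11.8 CPM in HF1 to HF4. Of the ECH libraries 3 were below all Ct libraries, and of the HF libraries 2 were. The log2 fold change was −1.22 for ECH against Ct (SE 0.68, edgeR FDR 0.513), −1.10 for HF against Ct (SE 0.68, FDR 0.453) and 0.11 for HF against ECH (SE 0.67, FDR 0.998). In a model with a term for the inferred set the value for HF against Ct was 0.71 (edgeR FDR 0.825), of the opposite sign. For ECH against Ct it was −0.58 (edgeR FDR 0.895), as it was for ECH1 and ECH2 alone against Ct (edgeR FDR 0.951). For HF against ECH the model with the set term gave 1.29 (edgeR FDR 0.480), and HF against ECH3 and ECH4 alone gave 1.29 (edgeR FDR 0.494). Single libraries moved the values against Ct as well, to −1.84 for ECH without ECH2, to −1.74 for HF without HF4 and to −0.72 for HF without Ct2. Without Ct2 and HF1 together the value for HF against Ct was −0.41 (edgeR FDR 0.822).
Plac8 is also made by neutrophils, whose markers were summed for each library. The sum over 10 genes was 686, 1762, 1262 and 368 CPM in Ct1 to Ct4, 316, 354, 195 and 697 CPM in ECH1 to ECH4 and 180.0, 131, 353 and 1267 CPM in HF1 to HF4. Ct2, Ct3 and HF4, the 3 libraries with the largest sums, were also the 3 with the most Plac8, and HF1, HF2 and ECH3, with the smallest sums, had the least. ECH4, with the next largest sum after those 3 (697 CPM), held only 2.84 CPM of Plac8, and ECH2 held 354 CPM of the markers and 10.9 CPM of Plac8. All 10 markers had negative log2 fold changes in HF against Ct and 9 of 10 in ECH, with medians of −1.12 and −1.10, and none was called. Camp, a granule gene, had 0 counts in all HF libraries and Ly6g was at a mean of at most 1.26 CPM in any group. The part of neutrophil RNA in the Plac8 values was not tested.

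**Figure D3:**
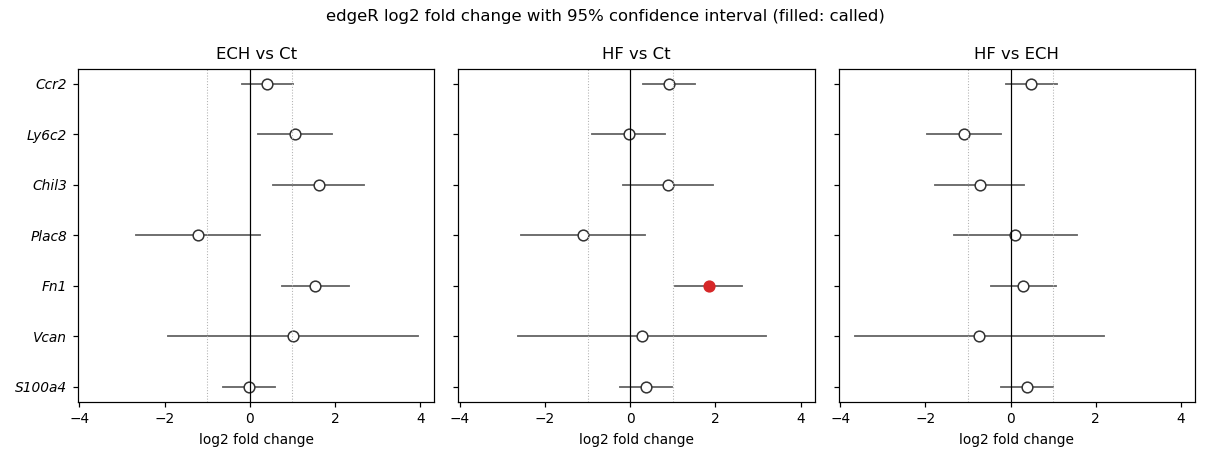
Log2 fold change of each member from edgeR (points) for ECH against Ct, HF against Ct and HF against ECH. Lines are 95% confidence intervals derived from the edgeR test statistic, and dotted lines mark 2-fold in either direction. The filled point, Fn1 in HF against Ct, is the only called value, and the intervals of Vcan reach from −3.66 to 3.95 over the 3 comparisons.

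Read against all genes, the counts of members were as follows. For ECH against Ct, 0 of 7 members were called, where 0.356% of all genes were, while an unadjusted p under 0.05 was found for 3 (Ly6c2, Chil3 and Fn1) against 11.9% of all genes. The same 3 members had ECH libraries that lay wholly above Ct, beside 4.33% of all genes in that direction. For HF against Ct, 1 of 7 was called (0.377% of all genes), 2 had an unadjusted p under 0.05 (Ccr2 and Fn1, 16.1% of all genes) and 1 had HF libraries wholly above Ct (Fn1, 4.59% of all genes). For HF against ECH, 0 of 7 were called, as were 0% of all genes by the quasi-likelihood test of the main model. DESeq2 called 47 genes there and edgeR's likelihood ratio test 48. With the inferred set as a covariate edgeR called 272, and within an inferred set 370. None of these fits called a member. In the main model an unadjusted p under 0.05 for HF against ECH was found for 1 member, Ly6c2 (7.98% of all genes). In 0 of 7 did the HF and ECH libraries separate in either direction (6.92% of all genes). The median log2 fold change of the 7 members was 1.01 for ECH against Ct, 0.37 for HF against Ct and 0.11 for HF against ECH, where that of all genes was 0.01, −0.01 and −0.02. By fitted value 5, 5 and 4 of the 7 were higher in the first group of each comparison, beside 51.1%, 48.8% and 48.0% of all genes.

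Per kilobase of exon, which permits a comparison between genes, S100a4 had the highest level of the members in every group and Vcan the lowest. In Ct the order was S100a4 at 198 ± 106 CPM per kb, Ccr2 at 47.1 ± 17.9, Chil3 at 23.1 ± 7.35, Fn1 at 8.60 ± 2.99, Plac8 at 7.70 ± 3.80, Ly6c2 at 3.48 ± 1.38 and Vcan at 0.166 ± 0.133 CPM per kb (SD, n = 4). Fn1 and Plac8 did not differ beyond their spread, while Plac8 was above Ly6c2 in each of the 4 Ct libraries. In ECH the neighbours Chil3 (70.5 ± 35.7 CPM per kb) and Ccr2 (62.7 ± 19.7 CPM per kb) overlapped at the top of the order below S100a4. The mean of Ly6c2 (7.21 ± 1.39 CPM per kb) was above that of Plac8 (3.31 ± 2.54 CPM per kb), but in ECH2 Plac8 was at 6.83 and Ly6c2 at 6.46 CPM per kb. In HF, Chil3 (42.6 ± 30.2 CPM per kb) overlapped with Ccr2 (88.1 ± 19.7 CPM per kb) and with Fn1 (30.7 ± 16.4 CPM per kb) in mean ± SD, as did Plac8 (3.58 ± 3.07 CPM per kb) and Ly6c2 (3.39 ± 1.98 CPM per kb). Over all libraries, the mean level per kb of S100a4 exceeded that of 98.5% of 14127 genes with a length, that of Ccr2 94.9%, Chil3 92.4%, Fn1 84.2%, Plac8 55.6%, Ly6c2 54.8% and Vcan 14.8%. The place of Ly6c2 depends on its length, 2740 bases for all annotated exons and 822 bases for the longest protein-coding transcript. With the latter its level was 11.6 CPM per kb in Ct, beside 12.1 CPM per kb of Fn1 and 10.01 CPM per kb of Plac8 on the same basis.

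Among the 21 pairs of members, the levels of 1 pair, Ccr2 and Fn1, were correlated over the 12 libraries after adjustment. Pearson's r of log2 CPM was 0.82 (permutation p 0.00116, adjusted p 0.0244 over 21 pairs) and Spearman's rho 0.89 (permutation p 0.000330, adjusted p 0.00693). Without Ct2 and HF3, the libraries farthest from the median of Ccr2, r was 0.76, and with each group centred on its own mean it was 0.75. Within the inferred sets of 6 libraries each, r was 0.80 and 0.50. For the other 20 pairs r lay between −0.31 and 0.68, with an adjusted permutation p for r of at least 0.117. Ly6c2 and Chil3 gave r = 0.68 (adjusted permutation p 0.117, 0.40 without Ct2 and HF2), and Ccr2 and Ly6c2 gave 0.29 (adjusted permutation p 0.595). For Ccr2 and Ly6c2, r was −0.28 without Ct2 and HF3, 0.68 with each group centred, and 0.78 and −0.15 within the inferred sets, so its sign depended on which libraries were used. The libraries share depth, group and inferred set, so these are relations between libraries and not between cells.

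**Figure D4:**
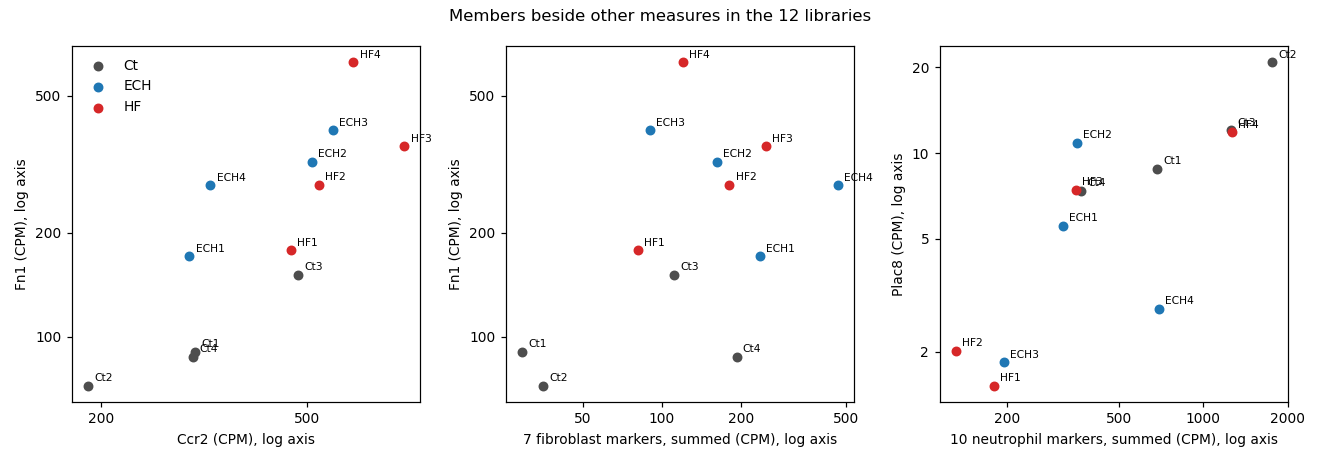
Each point is a library, labelled, on log axes in CPM: Fn1 against Ccr2 (left), Fn1 against the sum of 7 fibroblast markers (middle) and Plac8 against the sum of 10 neutrophil markers (right). Fn1 and Ccr2 increase together over the libraries (r = 0.82), HF4 has the most Fn1 with 120.3 CPM of fibroblast markers, and Ct2 has both the most Plac8 and the largest neutrophil sum.

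For each member, the 3 genes with the most similar profile were sought among 8643 non-member genes of at least 10 CPM, by the root-mean-square difference (RMS) of log2 CPM centred over 12 libraries. S100a4 was followed most closely by S100a6 (RMS 0.16), then 3110082I17Rik (0.20) and Tstd3 (0.22). For Ccr2 the nearest were Lcmt1 (0.21), Gm21188 (0.23) and Olfm1 (0.23), and for Fn1 they were Rrm2 (0.41), F10 (0.45) and Asf1b (0.47). Ly6c2 was nearest to Lss (0.38), Sesn2 (0.40) and Ranbp6 (0.41), and Plac8 to Slpi (0.51), Trem1 (0.56) and Hdc (0.57). For Chil3 the nearest were Sparc (0.66), Mmgt1 (0.66) and Il4ra (0.67), and for Vcan Dkk3 (1.51), Postn (1.70) and Eif5a2 (1.73). The RMS grows with the spread of the member itself, whose SD of log2 CPM was 0.46 for S100a4, 0.58 for Ccr2, 0.82 for Ly6c2, 0.97 for Fn1, 0.996 for Chil3, 1.23 for Plac8 and 3.02 for Vcan.

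Other genes of classical monocytes, in a list of 17 tested genes, differed in direction. For ECH against Ct, 1 of 17 was called, Thbs1, the gene of the matrix protein thrombospondin 1, which rose from 72.7 ± 23.4 CPM to 280 ± 65.4 CPM (SD, n = 4, log2 fold change 1.94, edgeR FDR 0.0202). In HF, Thbs1 was at 154 ± 74.5 CPM (log2 fold change 1.08 against Ct, edgeR FDR 0.144). For HF against Ct, 0 of 17 were called, 7 had an unadjusted p under 0.05 with higher values and 2 with lower values (16.1% of all genes in either direction), and for ECH against Ct these counts were 4 and 2 (11.9% of all genes), while for HF against ECH 0 of 17 were called. Higher among the 7 were S100a11 (log2 fold change 1.01, edgeR FDR 0.0786) and F10 (1.95, edgeR FDR 0.108), the gene of coagulation factor X, and among the lower genes was Ifitm6 (−1.23, edgeR FDR 0.0878). The list medians of 0.27, 0.40 and −0.09 for ECH against Ct, HF against Ct and HF against ECH stood beside 0.01, −0.01 and −0.02 for all genes. For ECH against Ct, Ifitm6 had a log2 fold change of −0.99 (edgeR FDR 0.175).

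**Figure D5:**
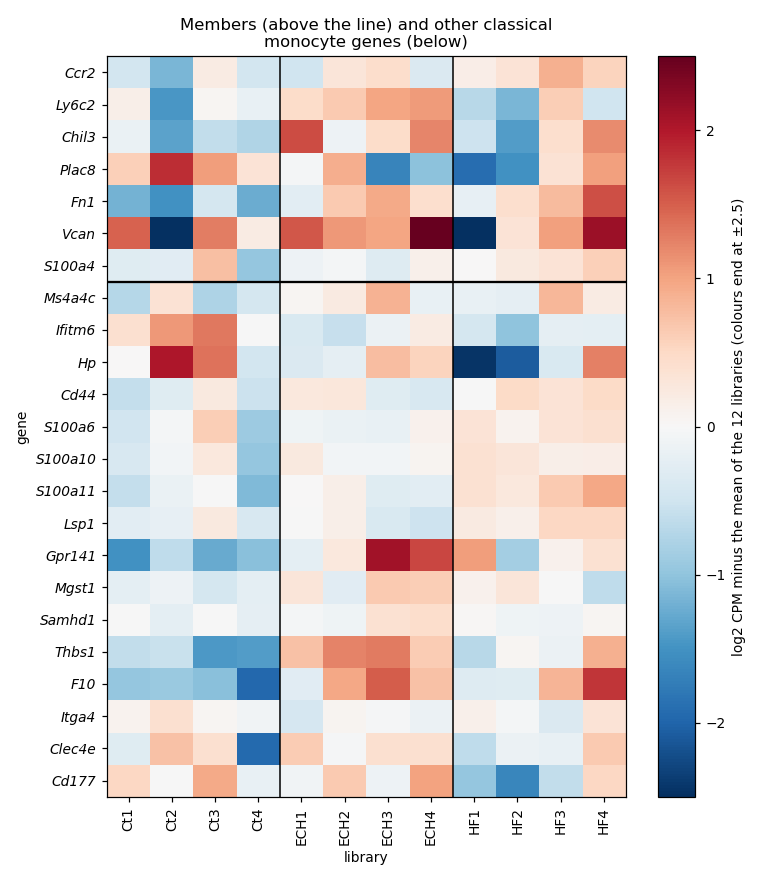
Log2 CPM of the 7 members (above the line) and other classical monocyte genes of the list (below) in each library, centred on the mean of the 12 libraries, with red above and blue below the mean and colours ending at 2.5 in either direction. Fn1 and F10 are lowest in the Ct libraries, Plac8 and Hp are highest in Ct2, and Ifitm6 is higher in 3 of the 4 Ct libraries than in every iso library.

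Nonclassical monocytes, the patrolling Ly6C-low cells, were represented by 10 genes. Of these, 1 was called for ECH against Ct, Fcgr4, an Fc receptor gene also expressed by Mφ, which rose from 50.2 ± 3.48 CPM to 106 ± 22.96 CPM (SD, n = 4, log2 fold change 1.08, edgeR FDR 0.0143). The other 9 had negative fitted values in ECH against Ct, among them Cx3cr1 (−0.97, edgeR FDR 0.451) and Nr4a1 (−1.04, edgeR FDR 0.283), and the list median was −0.76 for ECH and −0.66 for HF against Ct. In HF 0 of 10 were called against Ct and 0 of 10 against ECH.
Of 9 tested genes for CCR2 ligands and other monocyte chemokine receptors, 0 were called in any comparison. Ccl2 had means of 851 ± 263 CPM (Ct), 723 ± 476 CPM (ECH) and 1011 ± 289 CPM (HF), Ccl7 of 533 ± 279.6, 633 ± 489 and 1055 ± 329 CPM, and Ccl12 of 395 ± 147, 362 ± 340 and 564 ± 82.3 CPM (SD, n = 4). These ligands of CCR2 were thus detected in the sorted cells of every group, and none of the differences was called (edgeR FDR for HF against Ct 0.830, 0.395 and 0.699).
Of 11 tested genes for receptors and proteases that act on fibronectin and versican, 0 were called. The most abundant were Itgb1 (674 to 817 CPM in group means), Tlr2 (306 to 374 CPM) and Cd44 (240.3 to 362 CPM). Itga5, which pairs with Itgb1 to form the classical fibronectin receptor, had means of 68.5 ± 12.1 CPM (Ct), 107 ± 12.9 CPM (ECH) and 99.2 ± 5.52 CPM (HF) (SD, n = 4), with log2 fold changes of 0.65 and 0.53 against Ct (edgeR FDR 0.0728 and 0.123).

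In lists for the gene families of the members, 0 of 11, 0 of 7 and 0 of 2 tested genes were called in any comparison. These were the S100, Ly6 and chitinase-like lists, and the S100 list also holds a gene for an S100-binding protein. S100a6 and S100a10, among the most abundant S100 genes, had fitted values of 0.01 and 0.27 for ECH and 0.40 and 0.47 for HF against Ct (edgeR FDR 0.284 to 0.993). Ly6e, the most abundant Ly6 gene, was at 1008 ± 88.7 CPM in Ct and 1185 ± 150.3 and 1203 ± 44.2 CPM in ECH and HF (SD, n = 4). Ctbs was at 44.8 to 46.5 CPM in group means and Chil1 at 3.65 to 10.5 CPM. Among 12 regulators of the monocyte to Mφ transition 0 were called, with Csf1r and Cebpb among the most abundant, and Cebpb, which encodes a C/EBP factor, at −0.49 in HF against Ct (edgeR FDR 0.290).

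Markers of the other cells that a cardiac sort could hold were checked beside the members. Of 7 Mφ markers 0 were called, and of 10 resident Mφ markers, of which 5 were higher and 5 lower by fitted value in ECH against Ct (median −0.02), 1 was called, Timd4, which fell from 166 ± 50.2 CPM in Ct to 54.0 ± 23.4 CPM in ECH (SD, n = 4, log2 fold change −1.62, edgeR FDR 0.0341) and was at 87.1 ± 15.2 CPM in HF (−0.93 against Ct, edgeR FDR 0.172). In the other direction, Mertk had a log2 fold change of 1.43 and Cd163 of 0.72 for ECH against Ct (edgeR FDR 0.101 and 0.241). All 5 B cell markers had negative log2 fold changes in both iso groups, with medians of −2.47 in ECH and −2.23 in HF against Ct and a summed level of 96.6 to 446 CPM in Ct against 34.3 to 79.8 CPM in ECH and 50.1 to 74.6 CPM in HF. The highest B cell sum, like the highest neutrophil sum, was in Ct2. Of 7 T and NK cell markers, 8 dendritic cell markers, 6 endothelial markers and 5 cardiomyocyte markers 0 were called in any comparison. Summed, these lists ran from 2.73 to 64.0 CPM, from 184 to 416 CPM, from 10.1 to 31.0 CPM and from 42.4 to 176 CPM over all libraries. Their part in the values of the members was not tested.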

How the data were processed

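RNA of FACS-sorted CD14+/CD64+ cardiac Mφ was made into cDNA with the SMART-Seq v4 kit and sequenced on a NextSeq 500. After trimming with Trimmomatic, the authors mapped reads to mm10 by TopHat2 and counted them with featureCounts, and the deposited files hold raw counts per gene symbol without normalization. The sources used here give no annotation, strand setting, treatment of reads that fit several genes, or software version.

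Groups were taken from the sample labels. The analysis of counts used edgeR 4.0.16 under R 4.3.3 (filterByExpr by group, TMM, common dispersion 0.370, earlier quasi-likelihood method) in a single model of 12 libraries, without a term for batch. CPM are counts over TMM-scaled library sizes, and log2 CPM used a prior count of 2. The SE of a log2 fold change was derived as its absolute value over the square root of the F statistic. Confidence intervals were built from this SE and the t distribution, so both are approximations and not direct edgeR output. The pipeline was tested on simulated data. Alternatives, among them DESeq2 1.42.0 and limma 3.58.1, are described in the closing section. The members, the gene lists, the promoter letters and the tests were chosen with earlier results of these data known, so no edgeR p value was adjusted over the members alone and no gene set was tested. Correlation p values were adjusted over the 21 pairs of members. Genes were named when they were members or close copies of members, when called within a fixed list (otherwise up to the 3 most abundant of it), or when nearest to a member in profile; a few list genes named beyond this rule (S100a11, F10, Ifitm6, Cx3cr1, Nr4a1, Itga5, Hp, Dcn, Fcgr1, Postn, Mertk, Cd163, Camp, Ly6g, Chil1) were chosen after their values were seen. Some genes of the lists count in the list values but are not reported here by name. Gene lengths and positions came from GENCODE M21 (GRCm38), promoters from RefSeq (GRCm38.p6). Pairs of libraries within a group differed by far more than counting noise (chi-square per degree of freedom of at least 139), so none was counted as a repeat deposit. The study gives 4 mice per group, and p values measure the spread between these samples. Codes in the sample titles share a prefix between Ct1 and Ct2, Ct3 and Ct4, ECH3 and ECH4, and HF1 and HF2. No prefix is shared between groups, and its meaning is not stated. The model treats all libraries as independent, which these labels do not settle.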

Additional observations from a re-analysis of the deposited data

How the results depend on the processing

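With 1 of 7 members called for HF against Ct and 0 in the other comparisons, the counts moved as follows. For ECH against Ct the count was 1 (Fn1) under DESeq2 and 2 (Chil3 and Fn1) under the likelihood ratio test. For HF against Ct it was 0 with only the 2 groups compared, with the library set as a covariate, without Ct2 and HF1 together and with the replicate block (log2 fold change of Fn1 1.75, edgeR FDR 0.0653), and leaving out 1 library gave 0 to 1. The replicate numbers do not pair the libraries (12 same-numbered pairs, r of their deviations from −0.07 to 0.07). For HF against ECH it stayed at 0 in every alternative run. HF against Ct could not be fitted within an inferred set. Over all alternatives 499 of 518 values of the 21 member differences kept their direction. The 19 that reversed were as follows. S100a4 for ECH against Ct was 0.19 with limma-voom and 0.056 with the block, and leaving out 1 library gave −0.23 to 0.40 (0.05 without ECH3 and 0.40 without Ct3). Ly6c2 for HF against Ct was between 0.03 and 0.17 without Ct1, Ct3, HF1, HF2 or HF4 (0.12, 0.08, 0.08, 0.17 and 0.03), with a lowest value of −0.52. Plac8 for HF against Ct was 0.71 with the set as a covariate. For HF against ECH, Plac8 was −0.17, −0.09, −0.04 and −0.53 without ECH3, ECH4, HF3 and HF4. Its highest value there was 0.74 when 1 library was left out and 1.29 over the other alternatives. Vcan for HF against Ct was −0.11 with limma-voom, −0.34 with the set as a covariate, and −0.14 and −0.53 without Ct2 and HF4, with a highest value of 0.70. Fn1 for HF against ECH was −0.11 without HF4 and up to 0.53 without another library. The cause was not tested. The current quasi-likelihood method of edgeR, added after seeing the data, gave the same members, with 85 and 103 genes called for ECH and HF against Ct in place of 52 and 55. Over all genes, for ECH against Ct, HF against Ct and HF against ECH, 52, 55 and 0 were called, against 248, 336 and 47 by DESeq2, 218, 273 and 48 under the likelihood ratio test, 84, 130 and 0 with limma-voom, 22, 18 and 0 with the block, 22, 208 and 272 with the set as a covariate and 8, 41 and 0 with only the 2 groups. Leaving out 1 library gave 11 (without Ct1) to 95 (without Ct3), 15 (without Ct1) to 103 (without Ct3), and 0. Within an inferred set 1 gene was called for ECH against Ct and 370 for HF against ECH. Under other gene lengths S100a4 stayed the highest and Vcan the lowest of the members, and the length of the longest protein-coding transcript was added after seeing the data.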
